A study of Aspergillus niger with 6 samples.

Results

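The RNA-seq series holds mycelium of 1 engineered Aspergillus niger strain, a filamentous fungus grown industrially for organic acids, in 2 culture states. In the seed state, spores had grown for 20 h in seed medium, and in the fermentation state the mycelium had then spent time in fermentation medium and was sampled at 72 h. Each state has 3 libraries, given as biological replicates. All 6 share the same background, ATCC 1015, and the same genotype, a deletion of oahA together with entries for pyc, mdhC and Pgpd-C4T318, and the strain is written RG0095 in the titles and GR0095 in another field. There is no unmodified parent strain among them, medium and age differ together between the states, and no label says how the cultures of a state were separated or handled. The p-values below therefore weigh the difference between the states only against the spread among these libraries.

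Described here are 26 of the 10505 gene IDs, those whose mRNA level differed widely among the fermentation cultures while staying steady among the seed cultures. An ID was a member if its name began with ANI_1_, its mean was from 20 up to but below 500 CPM in both states (CPM is an ID's counts scaled to a library total of 1000000), and the ratio of its state means lay between 0.5 and 2. Its highest CPM among the fermentation libraries also had to be at least 2.5 times the lowest, and its highest among the seed libraries at most 1.5 times the lowest. The members were thus chosen by their measured CPM in all 6 libraries, so the spreads, means and state differences of the members are given as a description. Calls from a fit over the whole table are printed for them further on as values of that fit, and they support nothing about the members.

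Malic acid is made in the cytosol when pyruvate carboxylase turns pyruvate into oxaloacetate and malate dehydrogenase reduces that to malate. The enzyme encoded by oahA splits oxaloacetate into oxalate and acetate, so its loss removes a competing use of the same precursor. In submerged culture, filamentous fungi grow as pellets or dispersed hyphae, and the state of the mycelium and the supply of oxygen can differ from flask to flask. The members themselves could not be tied to this biology. The file pairs no ID with a gene name, and 0 of the 10505 IDs, members included, matched a gene ID, locus tag, synonym or accession in the ASM285v2 gene table of RefSeq, which lists 14404 genes. The unit of every statement is the ID, only 4 IDs are printed, and the other members are given by rank of their fermentation spread.

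Fermentation replicate 1 stood apart from its group before any ID was chosen. A chi-square test of the counts of library pairs gave statistics per degree of freedom of 80.4 and 71.5 for the pairs that include it. Fermentation replicates 2 and 3 gave 18.6. In seed the pairs that include replicate 1 gave 28.7 and 40.9, against 11.7 for replicates 2 and 3. So 1 library stood apart in seed too, at lower values. Library totals ran from 16828913 to 20267348 counts, and that of fermentation replicate 1 was the lowest. Its TMM factor, which corrects a total for the mix of transcripts it holds, was 0.879, where the other libraries had 0.989 to 1.05.

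Wide fermentation spread with steady seed levels was rare. Of the 10489 ANI_1_ IDs, 4241 had means inside the abundance window in both states, 3425 of these also met the condition on the state ratio, and 3229 of these the condition on the seed libraries. The last condition, on the fermentation libraries, kept 26 of the 3229 (0.805%). For the 3229 the median of highest over lowest CPM was 1.25 among fermentation libraries, and 2752 of them lay under 1.5. Of the members, 20 had a fermentation spread between 2.5 and 3, 3 between 3 and 4, and 3 above 4. Another 35 IDs lay between 2 and 2.5, so the members are the tail of a continuous distribution and no gap sets them off.

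The nearest values on both sides of each limit show how the edges fall. The smallest fermentation spread inside was 2.501 and the largest outside 2.45. For the seed spread these were 1.46 inside and 1.61 outside. The state ratio ran from 0.526 to 1.98 inside, with the nearest IDs outside at 0.418 and 2.11. The lowest state mean inside was 20.7 CPM against 19.9 CPM outside, and the highest inside was 476 CPM, with no ID beyond 500 CPM that met the other conditions. Only 1 ID was lost to the seed condition alone. Seed steadiness therefore removed almost nothing among the widely spread IDs of this window.

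**Figure D1:**
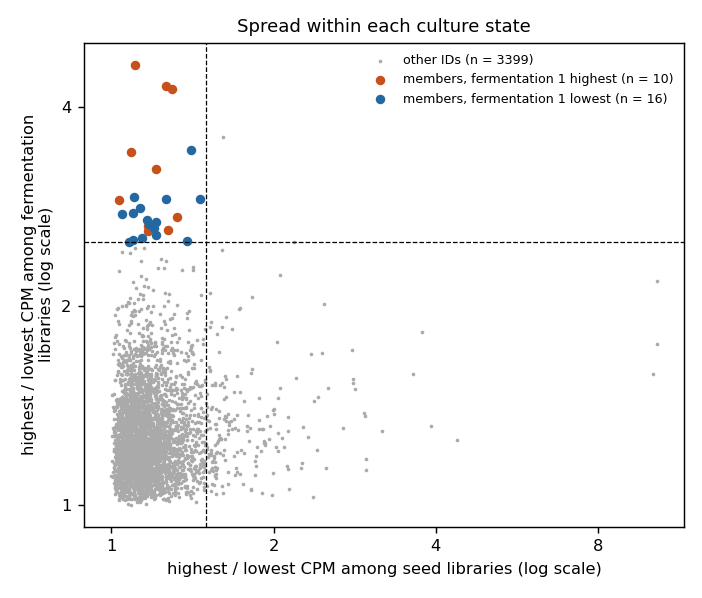
Each point is 1 of the 3425 IDs inside the abundance and ratio windows, with its highest over lowest CPM among the 3 seed libraries on the x axis and among the 3 fermentation libraries on the y axis, both on log scales. The dashed lines mark the limits of 1.5 and 2.5, and the 26 coloured members are the upper left tail of the cloud, 10 with fermentation replicate 1 highest and 16 with it lowest.

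The culture that differed was fermentation replicate 1. It held the highest fermentation value in 10 members and the lowest in 16, and in 0 of the 26 did it take the middle place. Fermentation replicates 2 and 3 were in the middle in 14 and 12 members. Being at an extreme is common for this library: it was highest or lowest in 88.4% of the 3229 IDs that met all other conditions. In the same 3229 it was lowest in 71.3%, whereas it was lowest in 61.5% and highest in 38.5% of the members.

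The order of the libraries took 4 of the possible forms. In descending order, replicates 3, 2 and 1 occurred in 9 members, 2, 3 and 1 in 7, and the orders 1, 2, 3 and 1, 3, 2 in 5 each. To say which culture stood apart, the log2 gap between the middle value and each extreme was compared, and the extreme with the wider gap was taken. By this measure fermentation replicate 1 stood apart in 22 members, 10 above and 12 below the other 2 cultures. Fermentation replicate 2 stood apart above in 3 and fermentation replicate 3 above in 1, and in those 4 fermentation replicate 1 was the lowest. The wider gap was at least 2 times the narrower in 17 of the 26.

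Fermentation replicates 2 and 3 differed less from each other, as must hold where fermentation replicate 1 is an extreme. The larger over the smaller of their 2 values had a median of 1.31 over the members and reached 1.93, below the limit of 2.5 in every member. For the 3229 IDs that met all other conditions, the median spread over all fermentation libraries was 1.25. Closeness of these 2 cultures was therefore not particular to the members. It exceeded 1.5 in 8 members, 2 of those with fermentation replicate 1 highest and 6 of those with it lowest. Without fermentation replicate 1 not a single ID of the table met the rule. With fermentation replicate 2 left out 18 IDs met it, and with fermentation replicate 3 left out 15.

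**Figure D2:**
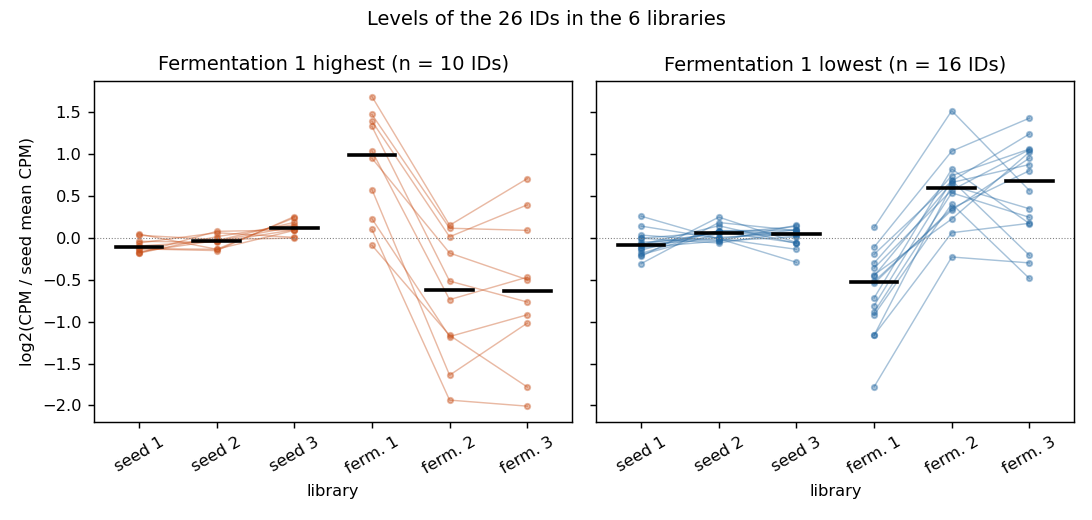
The y axis gives the log2 of an ID's CPM over its mean seed CPM and the x axis the 6 libraries, with 1 line per member and black bars at the median of the panel. The left panel holds the 10 members in which fermentation replicate 1 was highest and the right panel the 16 in which it was lowest, and the medians of fermentation replicates 2 and 3 lie on the other side of the seed level.

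The 10 members with fermentation replicate 1 highest included 5 of the 6 with a spread above 3. Together they held 0.125%, 0.132% and 0.146% of the counts of seed replicates 1, 2 and 3. In fermentation they held 0.247% in replicate 1, 0.0840% in replicate 2 and 0.0967% in replicate 3. So the summed share in fermentation replicate 1 lay above every seed library, and that in the other fermentation libraries below every one. Fermentation replicate 1 was between 2.26 and 4.19 times the mean of fermentation replicates 2 and 3 in these members, with a median of 2.56.

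ANI_1_2054064 had the widest spread of all members. It measured 48.1, 47.7 and 52.9 CPM in seed replicates 1, 2 and 3, and 73.7, 15.9 and 24.5 CPM in fermentation replicates 1, 2 and 3. Fermentation replicate 1 was thus above all seed libraries and the other fermentation libraries were below all of them. The counts behind the extremes were 1241 and 282, and their depth-scaled ratio was 4.63 with an exact 95% counting interval of 4.07 to 5.29. Such intervals, Clopper-Pearson throughout, cover counting error only and leave out the choice of library scaling. With TMM scaling the ratio was 5.46, outside this interval. The state means were 49.6 ± 2.90 CPM in seed and 38.0 ± 31.2 CPM in fermentation (SD, n = 3).

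ANI_1_928084 was the most abundant of the members in seed. It measured 419, 480.1 and 530.1 CPM in the seed libraries and 509, 124 and 118 CPM in fermentation replicates 1, 2 and 3. Fermentation replicate 1 lay inside the seed range, while the other 2 cultures lay far below it and within 1.05 times of each other. The ratio of highest to lowest was 4.30 (counting interval 4.10 to 4.51), and with TMM scaling it was 4.84. Its means were 476 ± 55.7 CPM in seed and 251 ± 224 CPM in fermentation (SD, n = 3).

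The other 3 of these with a spread above 3 ranked 3, 5 and 6. The member ranked 3 measured 52.6, 52.3 and 67.8 CPM in seed and 144, 40.2 and 33.8 CPM in fermentation. The member ranked 5 measured 27.8, 30.3 and 29.1 CPM in seed and 59.5, 17.4 and 20.98 CPM in fermentation. Both followed ANI_1_2054064, with fermentation replicate 1 above and the other cultures below every seed library. The member ranked 6, at 94.7, 113 and 115 CPM in seed and 101, 48.0 and 31.3 CPM in fermentation, followed ANI_1_928084 in that fermentation replicate 1 stayed at the seed level.

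A different form was seen at rank 10. This member measured 179, 173 and 175 CPM in seed, the steadiest seed values of all 26 with a highest over lowest of 1.04. In fermentation it measured 563, 195 and 286 CPM, every one above the seed range. Across the 10 members, fermentation replicate 1 was above the seed range in 8 and within it in 2. Both other cultures were below the seed range in 7 members, above it in 1 and at least 1 of them within it in 2.

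The 16 members with fermentation replicate 1 lowest had narrower spreads, from 2.501 to 3.44 with a median of 2.69, against a median of 3.06 in the 10. Together they held 0.147%, 0.171% and 0.162% of the counts in seed replicates 1, 2 and 3. In fermentation they held 0.105% in replicate 1, 0.232% in replicate 2 and 0.261% in replicate 3. Here the share in fermentation replicate 1 lay below every seed library and the other fermentation shares above every one, the reverse of the first set. Fermentation replicate 1 was 0.319 to 0.519 of the mean of fermentation replicates 2 and 3, with a median of 0.435.

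ANI_1_1918144 had the widest spread of the 16. It measured 24.04, 33.7 and 31.6 CPM in seed and 13.3, 45.8 and 37.8 CPM in fermentation replicates 1, 2 and 3. Fermentation replicate 1 was below and the others above every seed library. The extremes rest on 811 and 224 counts, with a ratio of 3.44 and a counting interval of 2.96 to 4.00. With TMM scaling the ratio was 2.92. The state means were nearly equal, 29.8 ± 5.10 CPM in seed and 32.3 ± 16.9 CPM in fermentation (SD, n = 3).

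ANI_1_76134 was the reverse of the rank 10 member, with every fermentation library below every seed library. It measured 303, 335 and 324 CPM in seed and 93.5, 273 and 260.2 CPM in fermentation. Fermentation replicate 1 stood lowest, 2.92 times below fermentation replicate 2 (counting interval 2.76 to 3.09), and fermentation replicates 2 and 3 differed by 1.05 times. With TMM scaling its highest over lowest was 2.48, below the limit of 2.5, so this ID did not meet the rule there. Its means were 321 ± 16.0 CPM in seed and 209 ± 100.2 CPM in fermentation (SD, n = 3).

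**Figure D3:**
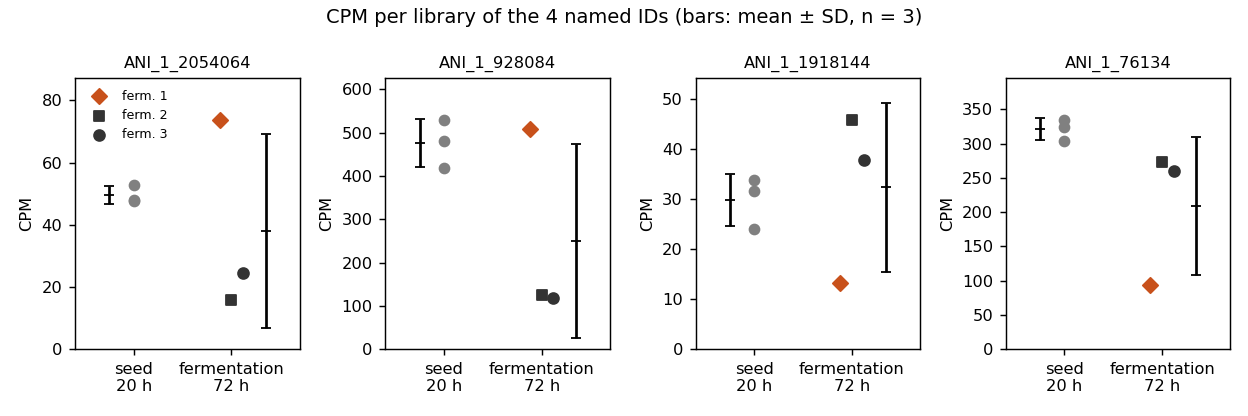
CPM of the 4 named IDs in each library, with seed libraries as grey circles and fermentation replicates 1, 2 and 3 as orange diamonds, dark squares and dark circles. Bars give the mean ± SD of each state (n = 3), and the diamond is far from the other fermentation points in every panel, above them for ANI_1_2054064 and ANI_1_928084 and below them for ANI_1_1918144 and ANI_1_76134.

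In 4 of the 16 another culture stood farther from the middle value than fermentation replicate 1 did. The member ranked 19 measured 80.6, 85.2 and 97.0 CPM in seed and 95.3, 249.8 and 129 CPM in fermentation, so fermentation replicate 2 stood out above. The member ranked 11, at 11.8, 33.2 and 17.9 CPM in fermentation, and the one ranked 26, at 17.2, 42.9 and 23.2 CPM, had the same form at a low level. The member ranked 13 measured 20.3, 32.2 and 55.99 CPM in fermentation, with fermentation replicate 3 above. These 4 are the members in which fermentation replicates 2 and 3 were least alike, with their ratio from 1.74 to 1.93.

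Taken whole, the sets differed in median abundance in seed and hardly in fermentation. Seed means of the 10 ran from 29.1 to 476 CPM with a median of 101 CPM, and those of the 16 from 20.7 to 321 CPM with a median of 45.5 CPM. Fermentation means had medians of 70.2 CPM in the 10 and 68.7 CPM in the 16. In the 12 members where fermentation replicate 1 stood apart below, the medians were 84.4 CPM in seed and 113 CPM in fermentation. The contrast between the whole sets thus did not hold for these 12. The lower bound of the 95% counting interval of the spread was at least 2.15 in every member and reached 2.5 in 11 of the 26. As the members were chosen by that same spread, these bounds are a description and no support for it. The coefficient of variation had a median of 50.8% among fermentation libraries and 8.70% among seed libraries. Over the 3229 IDs these medians were 11.5% and 7.11%. All of these IDs had passed the seed limit and only the members the fermentation limit, so nothing is read from either comparison.

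The seed level lay between the cultures in most cases. In 14 of the 26 members, 5 of the 10 and 9 of the 16, the whole seed range separated fermentation replicate 1 from both other fermentation cultures. Among the 3203 IDs that met all other conditions but were no members, this held for 4.75%. The rule favours this form, as it asks for a wide fermentation spread around state means within 2 times of each other. The 3203 met the condition on the means but not the one on the fermentation spread, where their median was 1.24. The 2 shares were thus set apart by the selection, and nothing is read from their difference. By distance on the log2 scale, fermentation replicate 1 was nearer to the seed mean in 13 members and the mean of the other fermentation cultures in the other 13. Neither side can therefore be called the seed-like one over the members as a whole. The median over the 10 members of the ratio to the seed mean was 1.99 for fermentation replicate 1 and 0.652 for the mean of the other 2 cultures, and over the 16 it was 0.691 and 1.55.

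The comparison of fermentation with seed was fitted over all IDs with edgeR's quasi-likelihood test. Calls were made at an adjusted p under 0.05 (Benjamini-Hochberg over every ID tested). All 26 members were among the 8963 IDs tested. Of these members 5 were called, all 5 higher in fermentation and 0 lower (7 and 0 at an unadjusted edgeR p under 0.05). Over all IDs tested 66.9% were called, 33.9% higher and 33% lower, and over the 3203 other IDs that met the remaining conditions 61.8%. DESeq2 called 5 members higher and 0 lower, 4 of them also called by edgeR, and 58.3% of the 10333 IDs it tested. The rule used this contrast and chose for a wide spread, so nothing is read from the low count. The 5 called by edgeR had log2 fold changes from 0.68 to 1.14 and edgeR adjusted p from 0.0154 to 0.0456. In 1 of them fermentation replicate 1 was highest and in 4 it was lowest. Seed and fermentation CPM were free of overlap in 2 members, against 70.7% of the IDs tested and 66.3% of those 3203. Fold changes of the members were imprecise, with a median SE of 0.29 on the log2 scale against 0.15 for all IDs tested. This too follows from choosing them for a wide spread.

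These few calls depended on single libraries. Without seed replicate 1, 2 or 3 the number called was 0, 1 and 2, without fermentation replicate 2 it was 6, and without fermentation replicate 3 it was 3. Over all IDs tested those fits called 63.1%, 56.4%, 58.4%, 63% and 60.5%, in the same order. Without fermentation replicate 1 it was 19, with 13 higher and 6 lower in fermentation. That fit called 67.1% of the 9101 IDs it tested, 33.7% higher and 33.4% lower. The members were selected for a spread that this library carries, so leaving it out narrows their errors by construction, and nothing is read from this count or from its balance of higher and lower calls.

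The direction of those calls went with the side of fermentation replicate 1, as leaving out the highest or lowest of 3 values must move the mean. Of the 10 members in which it was highest, 6 were called lower and 1 higher once it was left out. Of the 16 in which it was lowest, 12 were called higher and 0 lower (edgeR adjusted p under 0.05). The sign of the log2 fold change turned in 5 members. With all libraries the log2 fold change was -0.75 ± 0.56 (SE) for ANI_1_928084 and -0.22 ± 0.52 for ANI_1_2054064, and without fermentation replicate 1 it was -1.94 and -1.26. For ANI_1_1918144 it was 0.18 ± 0.34 with and 0.52 without that library. ANI_1_76134 stood at -0.55 ± 0.30 with all libraries and at -0.23 without fermentation replicate 1, a smaller change. None of these 4 was called with all libraries (edgeR adjusted p from 0.131 to 0.725).

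**Figure D4:**
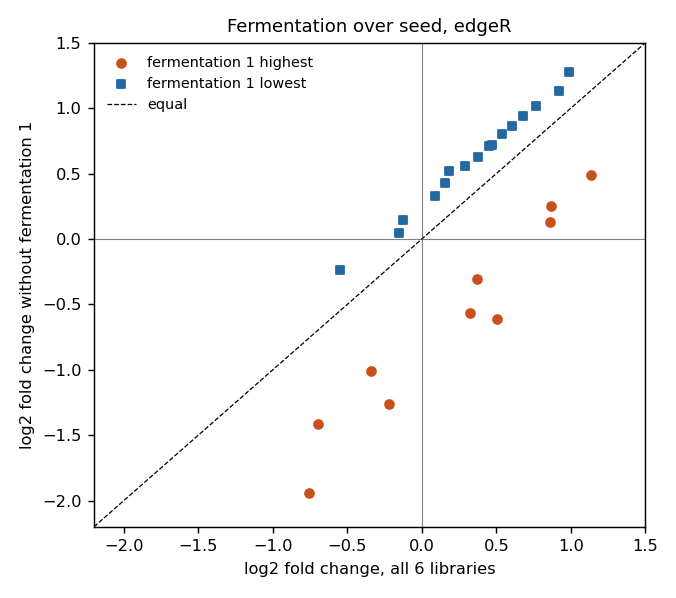
Log2 fold change of fermentation over seed for the 26 members in the edgeR fit, with all 6 libraries on the x axis and without fermentation replicate 1 on the y axis. Orange circles (fermentation replicate 1 highest) lie below the dashed line of equal values and blue squares (lowest) above it, and ANI_1_928084 is the lowest point, at -0.75 and -1.94.

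Which members were found, and the balance of the 2 sides, depended on how the libraries were scaled. With CPM from library totals, the median log2 ratio of fermentation replicate 1 to the mean of fermentation replicates 2 and 3 was -0.21 over the 3203 IDs that were no members, and with TMM it was -0.01. Under TMM 17 IDs met the rule, with fermentation replicate 1 highest in 14 and lowest in 3, where library totals gave 10 and 16. The RLE scaling gave 15 and 3, and upper-quartile scaling 15 and 4. A total of 11 members met the rule under all 4 scalings, 9 with fermentation replicate 1 highest and 2 with it lowest. Within a member the place of fermentation replicate 1 did not turn, as it was on the same side under TMM in 26 of the 26. Among the IDs that were no members, it was lowest in 40.9% and highest in 39.5% under TMM, against 71.3% and 16.9% with library totals.

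**Figure D5:**
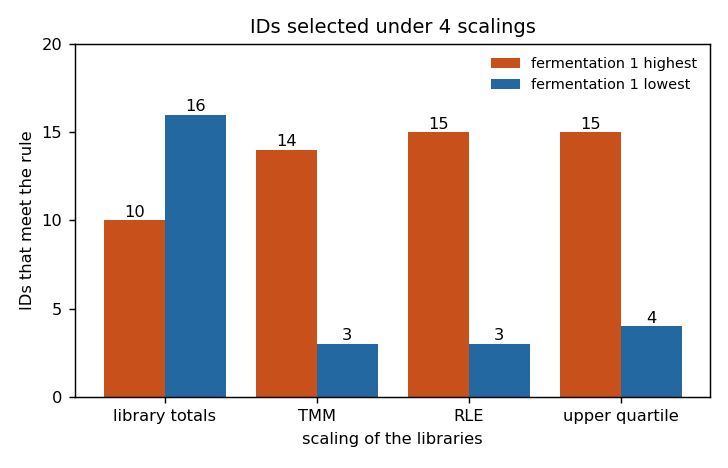
Number of IDs that met the rule under each of 4 scalings of the libraries (bars from 0), in orange those with fermentation replicate 1 highest and in blue those with it lowest. Library totals gave 10 and 16, TMM 14 and 3, RLE 15 and 3, and upper quartile 15 and 4.

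With CPM from library totals, spread confined to the seed cultures was rarer in this table. With seed and fermentation exchanged, the same rule found 8 IDs among 2903 that met all other conditions (0.276%, against 0.805% for the members), with highest over lowest CPM among seed libraries from 2.70 to 4.37. There too the same libraries were at the extremes, seed replicate 1 highest in 8 of 8 and seed replicate 3 lowest in 8 of 8. The difference between the shares was not tested, since both rules use the values they select on. Both shares are given for library totals only, and under TMM the fermentation rule found 17 IDs.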

How the data were processed

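The deposited table holds raw read counts per gene ID, whole numbers with no normalization, 1 column per library. Tools named in the submitters' processing notes, without versions or roles, are Bowtie2, Cufflinks, DESeq, HISAT2, HTSeq, SAMtools, StringTie and Trimmomatic. Genome build, annotation and strand setting are not given in the sources used, so reads of overlapping, antisense or near-identical genes cannot be separated with certainty. RNA went into a stranded mRNA kit per the labels' protocols.

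CPM was computed from column sums with pandas 2.3.3. Fits used edgeR 4.0.16 in R 4.3.3 with TMM, filterByExpr (minimum count 10, minimum total 15) and group as the only term, and DESeq2 1.42.0 as an alternative. Standard errors are the absolute log2 fold change over the square root of F. The edgeR script and the selection were tested on simulated data. Every replicate pair differed by more than sampling noise, so no library was a resampling of another and all 6 were kept. This cannot show that they came from separate cultures, which is taken from their labels as biological replicates. Named IDs are the 2 members with the widest fermentation spread whose culture apart lay above, and the 2 with it below. The members and rules were chosen with earlier results of these data known.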

Additional observations from a re-analysis of the deposited data

How the results depend on the processing

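The limit on the fermentation spread set how many IDs were found. A limit of 2 gave 61 IDs, with fermentation replicate 1 highest in 21, lowest in 39 and in the middle in 1. It stood apart above in 20 and below in 31, fermentation replicate 2 above in 7 and below in 1, and fermentation replicate 3 above in 2. A limit of 3 gave 6 IDs, with fermentation replicate 1 highest and apart above in 5, lowest and apart below in 1, and the other cultures apart in 0. TMM gave 17 IDs. Fermentation replicate 1 was lowest and apart below in 3 under TMM, 3 under RLE and 4 under upper-quartile scaling, and fermentation replicates 2 and 3 stood apart above in 0 under each. Without a library, 0 to 27 IDs met the rule. A seed limit of 2 gave 27 IDs and no upper limit on abundance 26.

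Members called numbered 3 with library totals only, all higher, where that fit called 64.1% of all IDs tested. Leaving out a library gave 0 to 19 members called, 0 to 13 higher and 0 to 6 lower. The share called over all IDs tested ran from 56.4% to 67.1% in those fits. With 1 library left out, the log2 fold change of ANI_1_2054064 ranged from -1.26 to 0.16 and that of ANI_1_1918144 from -0.12 to 0.52. The first was 0.16 without fermentation replicate 2 and 0.03 without fermentation replicate 3, and the second -0.12 without fermentation replicate 2. These reversed values were not called. Counts of calls over all IDs stayed within 1.5 times under every alternative run.

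Deviations of same-numbered libraries from their state means correlated at 0.04, 0.03 and 0.05, and 3 of 6 libraries correlated best with their own number. These values cannot show whether same-numbered cultures were linked, and no label says so. The main fit treated the libraries as unpaired. The replicate block gave 5890 calls (65.7% of the IDs tested) in place of 5995 (66.9%). It called 7 members in place of 5, 6 higher and 1 lower. That 1 was ANI_1_76134, at -0.66 (edgeR adjusted p = 0.0445). Depth limits the least abundant members, whose lowest library holds 199 counts.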

Other observations

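No 2 members were next to each other in number. Taking the last 3 digits of an ID as its ending, 13 of the 18 endings of the tested IDs occur among the members, with at most 3 members each. When the tested IDs are ordered by number within an ending, 0 members had another member as a direct neighbour. The 52 direct neighbours were themselves no members. For the 10 members with fermentation replicate 1 highest, 11 of 20 neighbours had more CPM in fermentation replicate 1 than the mean of fermentation replicates 2 and 3, where 27.7% of all IDs tested did. For the 16 with it lowest, 26 of 32 neighbours had less, where 72.3% of all did. The files do not say what the numbers mean, and the difference was not tested.

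Outside the window of state ratios, 13 more IDs of the same abundance had a fermentation spread of at least 2.5. In 8 of them the fermentation mean was at most 0.5 of the seed mean, with fermentation replicate 1 lowest in 7, and in 5 it was at least 2 times the seed mean, with fermentation replicate 1 highest in 3. Among IDs with means of 500 CPM or more in both states, 0 met the other conditions of the rule.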
